A study of Mus musculus with 12 samples.

Results

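Markers of thalamic and habenular neurons were followed through 12 libraries of hippocampal RNA. The set held 31 of the 24421 genes in the table and was taken by symbol from the count table: 17 genes of thalamic neurons, 9 of the habenula, and 5 shared by both or by other diencephalic neurons. All 31 symbols were found, 1 of them (Patj) under its older symbol Inadl. The expression filter kept 24 of the 31 members, among 13065 genes tested: 16 of the 17 thalamic, 3 of the 9 habenular and all 5 shared members. A member that was filtered out is described by its counts and was not tested.

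The thalamus and habenula are parts of the diencephalon that lie next to the dorsal hippocampus, so tissue from them can come with a hippocampal dissection. Most thalamic relay neurons are glutamatergic, load their vesicles through the transporter Vglut2 (Slc17a6), and keep the transcription factor Tcf7l2 into adulthood. The medial habenula is a compact nucleus known for the tachykinins, for nicotinic receptors built from alpha-3, beta-3 and beta-4 subunits, and for the orphan receptor Gpr151. Several of these genes are also made elsewhere, for example Tcf7l2 in maturing oligodendrocytes and Zic1 in the meninges, so that no single marker names a cell type.

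Mice were 2 months old and all were injected with BrdU, which dividing cells take up into new DNA. The 4 genotypes, with 3 biological replicates each, were wild type (WT), 5xFAD, which carries human transgenes with familial Alzheimer mutations driven by the neuronal Thy1 promoter, p75NTRko, named for a knockout of the p75 neurotrophin receptor encoded by Ngfr, and the cross 5xFAD/p75NTRko. Per its title, the study asks how the receptor shapes adult hippocampal neurogenesis in Alzheimer's disease. Each library was read from the 3′ ends of transcripts, so a count has no gene-length term, and levels are given as CPM, counts scaled to a TMM-adjusted library total.

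Gene-assigned counts numbered 4316739 to 6683613 per library, and 3 counts, taken as the limit of measurement, stood for 0.446 to 0.690 CPM. Ngfr counts were higher, not lower, under the knockout labels. Ngfr lay at 0.166 to 1.95 CPM in WT, 0.751 to 1.70 in 5xFAD, 5.95 to 7.79 in the p75NTRko-labelled libraries and 6.33 to 10.5 in the 5xFAD/p75NTRko-labelled ones. Counts from the ends of transcripts do not show whether a transcript is intact, so they do not decide whether the labels hold. The receptor genotypes are therefore given only as labelled, and so is any direction drawn from them. Thy1 was at 1597 to 4019 CPM in the libraries labelled 5xFAD or 5xFAD/p75NTRko and at 688 to 939.8 in the others. Xist, made from the inactive X chromosome, was high (359.7 to 439 CPM) in 7 libraries and low (1.53 to 3.58 CPM) in 5. All WT and all 5xFAD/p75NTRko libraries and p75NTRko replicate 1 were in the high class, and all 5xFAD libraries and p75NTRko replicates 2 and 3 in the low class. The genotype and this class therefore cannot be told apart in 5xFAD against WT or in 5xFAD/p75NTRko against 5xFAD. The class was also unevenly spread in the comparisons with p75NTRko and in the interaction of transgene and receptor label.

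Markers of the hippocampus were checked and were detected in every library. With no other tissue to compare, this does not test the label. The 10 hippocampal genes fixed for this check, such as Neurod6 of pyramidal neurons and Prox1 of granule cells, summed to 847 to 1528 CPM in every library. Of 8 striatal genes, Drd2 and Gpr6 were at 0 in all 12 libraries, but the other 6 were detected and tested. The striatal list summed to 77.2 to 115.7 CPM, so the values of 0 do not show that striatal genes were absent. Thalamic members summed to 397 to 1017 CPM and the habenular members to 55.0 to 100.5 CPM. Most of the habenular sum came from a single gene, Nwd2, at 47.0 to 90.9 CPM. In bulk RNA, fewer cells of a type and less RNA per cell cannot be told apart, which holds for all levels below.

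Tcf7l2 and Lef1, both members, are DNA-binding proteins of the TCF/LEF family, whose core site reads TCAAAG on 1 strand. The 250 bases before the annotated starts of the members were therefore searched for this core on both strands, with RefSeq promoters of GRCm38.p6 that matched 27 of the 31 members in 38 windows. The core stood in 4 of the 38 windows (10.5%), against 4544 of 32851 windows of all genes (13.8%). The genes with it were Prkcd, an alternative start of Lef1, Tac2 and Nwd2. A match is a description of letters and does not mark a bound site. The windows of the thalamic gene Prkcd and of the habenular genes Tac2 and Nwd2 are shown 5′ to 3′ on the gene's strand because they are the members described by library below that hold the core, which is in capitals. They lie at chr14:30626209-30626458 on the minus strand (Prkcd), chr10:127724228-127724477 on the plus strand (Tac2) and chr5:63648853-63649102 on the plus strand (Nwd2).
Prkcd: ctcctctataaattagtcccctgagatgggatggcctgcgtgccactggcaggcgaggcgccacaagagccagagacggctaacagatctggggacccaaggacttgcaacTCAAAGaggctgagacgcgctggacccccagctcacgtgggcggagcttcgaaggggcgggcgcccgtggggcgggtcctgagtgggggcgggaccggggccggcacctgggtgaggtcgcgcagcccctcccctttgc
Tac2: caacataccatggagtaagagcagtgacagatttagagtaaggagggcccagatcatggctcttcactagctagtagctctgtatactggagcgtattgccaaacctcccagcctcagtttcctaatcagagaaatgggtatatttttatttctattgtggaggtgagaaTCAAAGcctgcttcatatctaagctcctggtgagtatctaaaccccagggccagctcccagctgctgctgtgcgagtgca
Nwd2: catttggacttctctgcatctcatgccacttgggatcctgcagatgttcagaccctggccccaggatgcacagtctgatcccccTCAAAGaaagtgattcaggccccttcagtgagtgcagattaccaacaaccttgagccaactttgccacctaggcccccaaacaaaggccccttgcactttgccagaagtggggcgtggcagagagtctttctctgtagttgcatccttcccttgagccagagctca

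The levels of the leading thalamic members lay high in WT and in part of the 5xFAD/p75NTRko-labelled libraries, and low in 5xFAD and p75NTRko-labelled ones, though no member passed the adjusted test below. Prkcd, protein kinase C delta, a marker of relay neurons, was at 139, 296 and 261 CPM across WT (values here and below in the order of replicates 1, 2 and 3), 86.6, 115 and 106 across 5xFAD, 119.6, 86.9 and 112 across p75NTRko and 306, 88.7 and 55.6 across 5xFAD/p75NTRko. Every 5xFAD and p75NTRko library lay below every WT library, while the 5xFAD/p75NTRko libraries held both the highest and the lowest value of all 12. The means were 232 ± 82.7 in WT, 102 ± 14.3 in 5xFAD, 106 ± 17.1 in p75NTRko and 150.004 ± 136 in 5xFAD/p75NTRko (SD, n = 3 each).

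Rora, a nuclear receptor of sensory relay nuclei, was at 189, 187 and 177 CPM across WT, 116, 114 and 98.7 across 5xFAD, 92.3, 80.2 and 85.3 across p75NTRko and 223, 92.0 and 164 across 5xFAD/p75NTRko. WT did not overlap 5xFAD or p75NTRko, and 5xFAD/p75NTRko replicate 2 stood with the p75NTRko libraries while replicate 1 was above all others. Ramp3, which partners the calcitonin receptor-like receptor, was at 57.2, 62.6 and 46.6 CPM across WT, 21.9, 19.5 and 13.9 across 5xFAD, 16.5, 19.1 and 12.8 across p75NTRko and 58.0, 9.16 and 38.9 across 5xFAD/p75NTRko. Here too WT stood apart from 5xFAD and p75NTRko, and the 5xFAD/p75NTRko libraries ran from the lowest value of the 12 to the WT range.

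Tnnt1, the slow troponin T, known also from thalamic neurons, was at 6.43, 14.6 and 11.6 CPM across WT, 2.21, 4.51 and 2.10 across 5xFAD, 1.11, 0.690 and 1.49 across p75NTRko and 13.0, 0.390 and 2.13 across 5xFAD/p75NTRko. Of the 12 libraries, only WT and 5xFAD/p75NTRko replicate 1 exceeded 5 CPM. Rgs16, a regulator of G-protein signalling, was at 9.25 to 16.8 CPM across WT, 4.75 to 6.76 across 5xFAD, 2.99 to 5.93 across p75NTRko and 2.53 to 16.7 across 5xFAD/p75NTRko. Amotl1, of the angiomotin family, was at 79.2 to 111 CPM across WT, 57.6 to 72.5 across 5xFAD, 49.8 to 53.9 across p75NTRko and 46.0 to 137 across 5xFAD/p75NTRko. Tnnt1, Rgs16 and Amotl1 were chosen for values here after they had been seen.

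The zinc-finger factors Zic1 and Zic4 did not wholly follow this order. Zic4 was at 5.53, 8.28 and 24.4 CPM across WT, 7.64, 6.20 and 6.52 across 5xFAD, 10.4, 7.82 and 8.62 across p75NTRko and 12.5, 3.90 and 3.28 across 5xFAD/p75NTRko. WT replicate 3 stood highest, 5xFAD/p75NTRko replicate 1 came next, and the groups overlapped. Zic1 had the same 2 libraries on top, at 117 CPM in WT replicate 3 and 88.3 in 5xFAD/p75NTRko replicate 1, with 15.2 to 43.9 in the other 10. The annotated spans of Zic1 and Zic4 overlap at their starts (Zic1 at chr9:91358058-91365768 and Zic4 at chr9:91365631-91389351), and the counting's use of strand is not given in the sources used here, so reads there are uncertain.

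The LIM homeobox factors Lhx9 and Lhx2 lay higher in the p75NTRko-labelled libraries than in WT without overlap. These 2 of the 24 tested members (8.33%) are near the 7.93% of all genes that did so. Lhx9 was at 5.38, 6.005 and 12.3 CPM across WT, 8.15, 9.58 and 8.84 across 5xFAD, 12.8, 14.5 and 12.8 across p75NTRko and 17.3, 13.6 and 5.57 across 5xFAD/p75NTRko. All p75NTRko libraries were above all WT libraries, and the other groups overlapped WT. Lhx2 spanned only 59.1 to 83.3 CPM over the 12 libraries, with WT replicate 3 lowest and p75NTRko replicate 3 highest.

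The remaining thalamic members are given by their range over the 12 libraries. The exchange factor Plekhg1 ranged from 10.0008 to 28.5 CPM, the phosphatase Ptpn3 from 14.8 to 25.4, the phosphatase Ptpn4 from 2.41 to 6.01, and the actin-binding Synpo2 from 1.13 to 6.49. Lef1 ranged from 0.892 to 4.83 CPM and the tight-junction scaffold Patj from 0.195 to 8.33. Gbx2, a homeobox factor of the developing thalamus, was filtered out, with 4, 1 and 13 counts across WT, 0 in every 5xFAD library, 1, 3 and 0 across p75NTRko and 7, 0 and 4 across 5xFAD/p75NTRko. WT replicate 3 alone held most of the WT counts of Gbx2, and no fold is given.

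**Figure D1:**
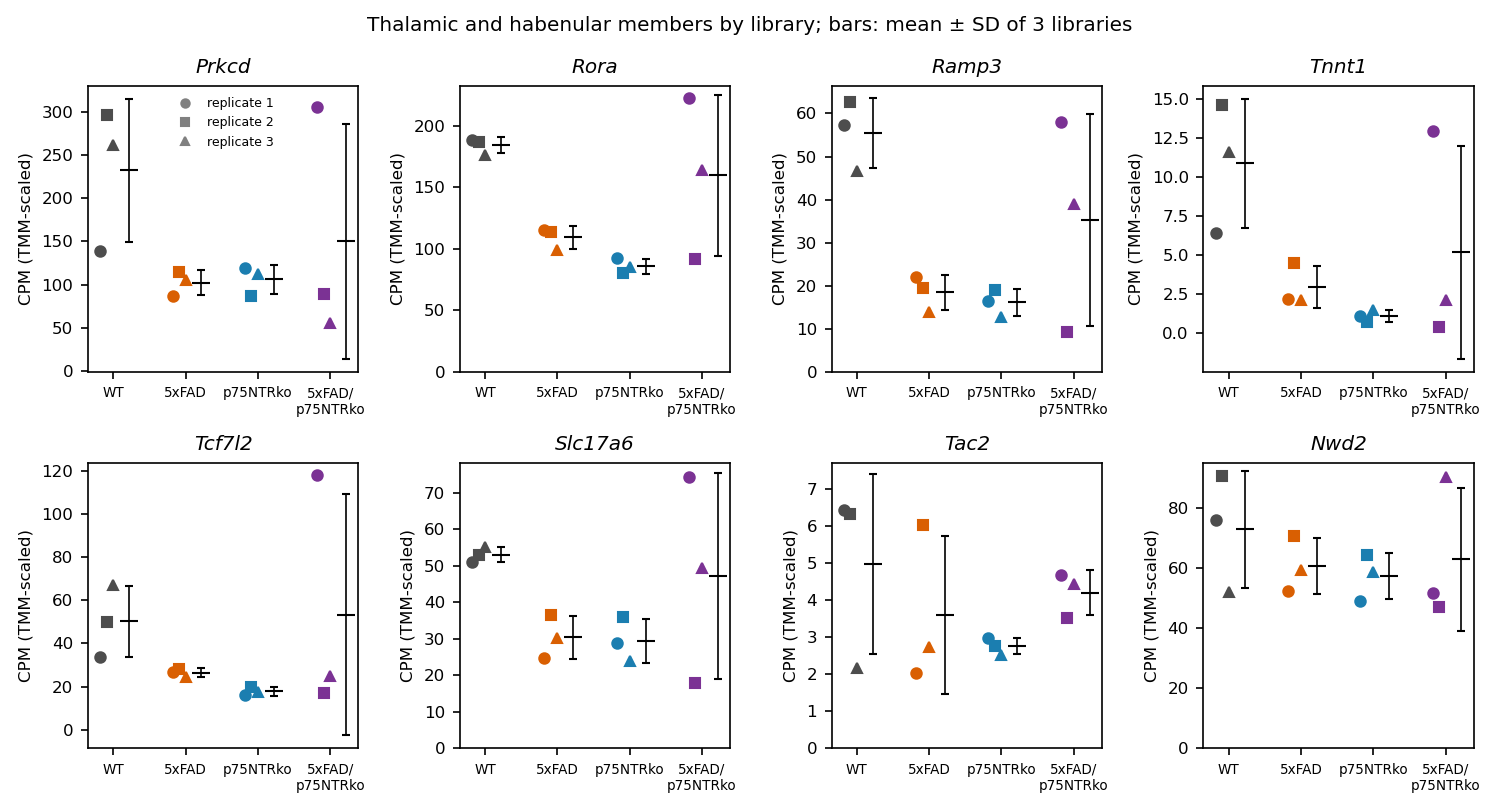
CPM (linear axis, TMM-scaled) of 8 members in each library by genotype, with points shaped by replicate number and the mean ± SD of 3 libraries beside them. WT lies above 5xFAD and p75NTRko without overlap for the 4 thalamic members of the top row and for Tcf7l2 and Slc17a6. It overlaps them for the habenular Tac2 and Nwd2. Within its genotype, 5xFAD/p75NTRko replicate 1 is the highest library for all but Nwd2.

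Among the 5 shared members, Tcf7l2 and Slc17a6 followed the thalamic order and the cerebellins did not. Tcf7l2 was at 33.9, 49.98 and 67.0 CPM across WT, 26.8, 28.4 and 24.2 across 5xFAD, 15.9, 19.8 and 17.4 across p75NTRko and 118, 17.2 and 25.1 across 5xFAD/p75NTRko. WT was above 5xFAD and p75NTRko without overlap, and 5xFAD/p75NTRko replicate 1 was above all WT libraries while its replicates 2 and 3 were below them. Slc17a6 was at 51.1, 52.9 and 55.2 CPM across WT, 24.6, 36.4 and 30.1 across 5xFAD, 28.7, 35.9 and 23.9 across p75NTRko and 74.3, 17.9 and 49.3 across 5xFAD/p75NTRko. WT was again apart from 5xFAD and p75NTRko, with a narrow spread of its own.

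Cerebellins are secreted proteins that organise synapses. Cbln4 was at 21.8, 22.6 and 10.6 CPM across WT, 15.6, 14.5 and 10.9 across 5xFAD, 6.67, 10.3 and 7.58 across p75NTRko and 17.0, 13.4 and 30.5 across 5xFAD/p75NTRko. All p75NTRko libraries were below all WT and all 5xFAD/p75NTRko libraries. Cbln1 was at 9.41, 14.4 and 1.99 CPM across WT, 7.47, 9.20 and 2.95 across 5xFAD, 4.63, 4.60 and 3.87 across p75NTRko and 4.83, 2.92 and 17.1 across 5xFAD/p75NTRko, so that WT replicate 3, high for Zic1 and Tcf7l2, was the lowest library for Cbln1. The exchange factor Vav3 ranged from 5.74 to 16.3 CPM, with its highest values in WT replicate 3 and 5xFAD/p75NTRko replicate 1. Both cerebellins were chosen for values here after they had been seen.

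The 3 tested habenular members each had their own order of libraries. Tac2, the precursor of neurokinin B, was at 6.43, 6.33 and 2.16 CPM across WT, 2.04, 6.01 and 2.73 across 5xFAD, 2.97, 2.76 and 2.53 across p75NTRko and 4.66, 3.51 and 4.43 across 5xFAD/p75NTRko. WT overlapped every other genotype, and only the 5xFAD/p75NTRko and p75NTRko libraries did not overlap each other. Nwd2, a NACHT and WD-repeat protein, was the most abundant habenular member, at 76.1, 90.9 and 52.1 CPM across WT, 52.3, 70.6 and 59.5 across 5xFAD, 49.1, 64.4 and 58.7 across p75NTRko and 51.6, 47.0 and 90.3 across 5xFAD/p75NTRko. WT replicate 2 and 5xFAD/p75NTRko replicate 3 were high, and all groups overlapped.

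Irx1, an Iroquois homeobox factor, was at 2.09, 1.30 and 4.15 CPM across WT, 2.72, 0.188 and 0.421 across 5xFAD, 0.927, 0.460 and 1.34 across p75NTRko and 4.66, 1.17 and 1.31 across 5xFAD/p75NTRko. WT replicate 3 and 5xFAD/p75NTRko replicate 1 were the highest, and several libraries were at or under the limit of measurement.

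The other 6 habenular members, which include the receptors that define the medial habenula, were mostly at or near the limit of measurement. Of their 72 values, 50 were at or under 3 counts and 20 were 0. Gpr151, the orphan receptor, had 2, 2 and 1 counts across WT, 3, 2 and 4 across 5xFAD, 3, 0 and 1 across p75NTRko and 2, 7 and 1 across 5xFAD/p75NTRko. No genotype stood apart for Gpr151, and its highest library was 5xFAD/p75NTRko replicate 2, the lowest for 8 of the 24 tested members.

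Pou4f1, the homeodomain factor of habenular neurons, had 1, 2 and 24 counts across WT, 1, 5 and 2 across 5xFAD, 5, 4 and 5 across p75NTRko and 17, 4 and 9 across 5xFAD/p75NTRko. WT replicate 3 and 5xFAD/p75NTRko replicate 1 were therefore high again. The same 2 libraries were the highest for Irx2, with 12 and 11 counts, and for the nicotinic subunit Chrna3, with 9 and 8 counts, while Irx2 had at most 5 and Chrna3 at most 3 counts in the other 10. The nicotinic subunits Chrnb4 and Chrnb3 had at most 5 and 6 counts in any library. Chrna3 and Chrnb4 are neighbours on chromosome 9 whose annotated spans do not overlap. Summed over the 6 genes, the libraries held 54 counts in WT replicate 3, 48 in 5xFAD/p75NTRko replicate 1 and 6 to 18 in the other 10. No fold change is given for these 6 genes at such counts.

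**Figure D2:**
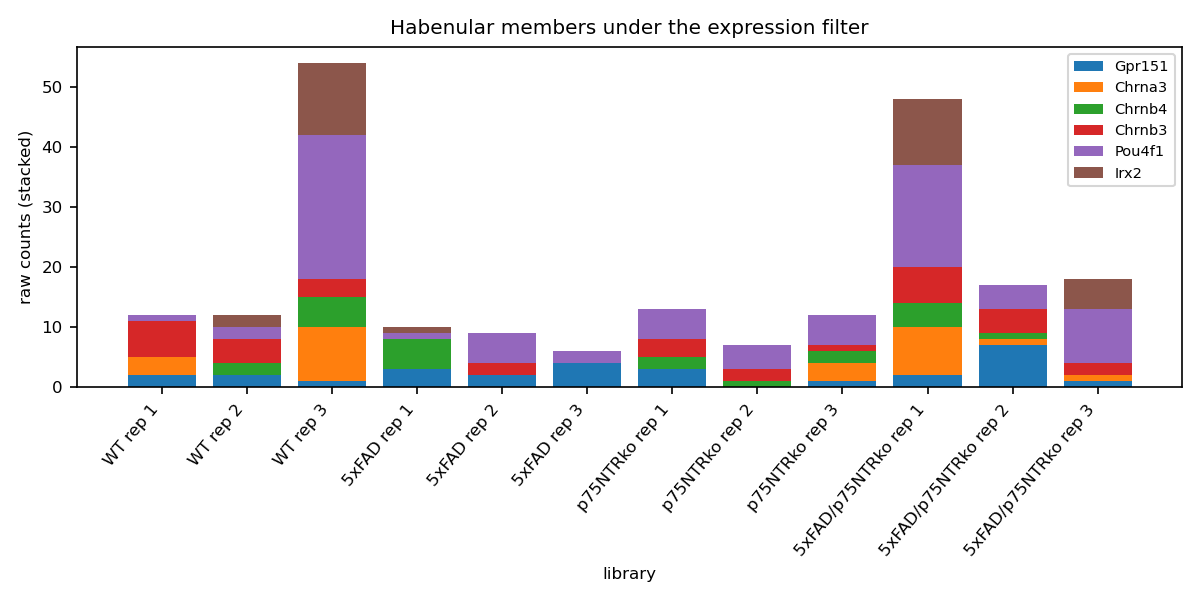
Raw counts, stacked by gene, of the 6 habenular members under the expression filter in each library. WT replicate 3 (54 counts) and 5xFAD/p75NTRko replicate 1 (48 counts) stand above the other 10 libraries (6 to 18 counts), mainly through Pou4f1 and Irx2.

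Members therefore did not share an order of libraries. 5xFAD/p75NTRko replicate 1 held the highest value for 10 of the 24 tested members (41.7%), against 6.97% of all tested genes. Replicate 2 of that genotype held the lowest value for 8 of them (33.3%), against 11.9% of all tested genes. Tcf7l2, Zic1 and Irx1 had their 2 highest values in WT replicate 3 and 5xFAD/p75NTRko replicate 1, and Prkcd and Tnnt1 were high in those and in WT replicate 2, whereas Nwd2, Cbln1 and Cbln4 were high in WT replicates 1 and 2 and 5xFAD/p75NTRko replicate 3. This grouping was made after the values were seen and was not tested.

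**Figure D3:**
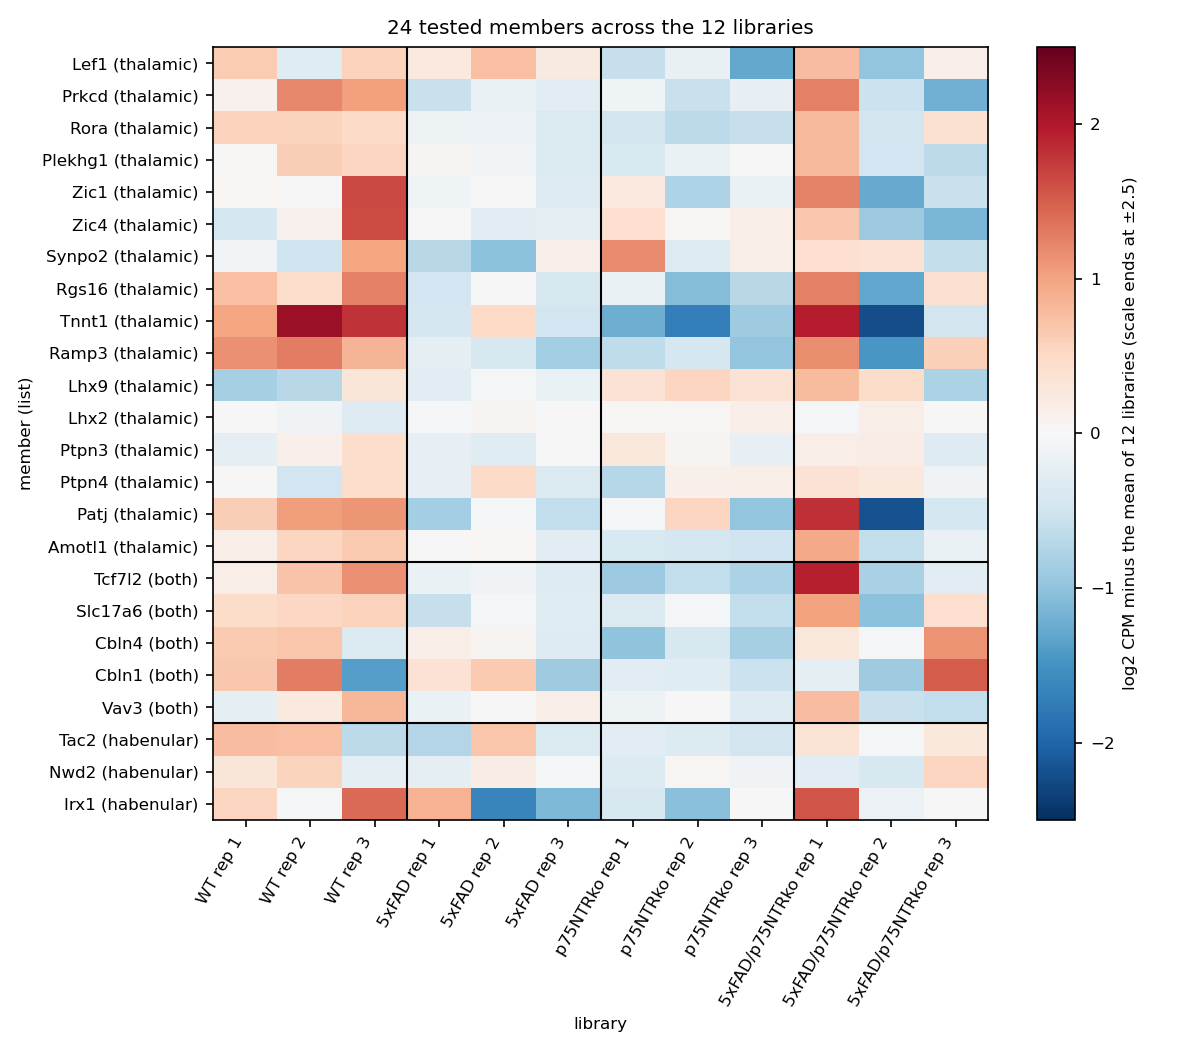
Log2 CPM of the 24 tested members (vertical axis, by list) in the 12 libraries (horizontal axis), each minus the gene's mean over the libraries, on a colour scale that ends at ±2.5. Most thalamic members are high in WT and in 5xFAD/p75NTRko replicate 1 and low in 5xFAD/p75NTRko replicate 2, while Cbln1, Cbln4 and Nwd2 are high in 5xFAD/p75NTRko replicate 3.

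In 5xFAD against WT, 10 of the 24 tested members were lower in every 5xFAD library than in any WT library, and 0 were higher in every one. The thalamic list gave 8 of these 10 (Prkcd, Rora, Zic1, Rgs16, Tnnt1, Ramp3, Patj and Amotl1), and the shared list Tcf7l2 and Slc17a6. Over all genes tested, 9.02% were lower and 10.5% higher without overlap, so the 0 of 3 habenular members is near the share of all genes and shows no contrast with the thalamic list. No member passed the threshold after Benjamini-Hochberg adjustment in the quasi-likelihood test of edgeR (0 of 24, against 0.0536% of all genes), and DESeq2 also called 0. At an unadjusted p under 0.05 there were 6 members, against 13.9% of all genes. Log2 fold changes of level were -1.58 for Ramp3 (SE 0.410, adjusted p 0.184) and -0.75 for Rora (SE 0.211, adjusted p 0.213). Prkcd gave -1.18 (SE 0.449, adjusted p 0.302), Tcf7l2 -0.92 (adjusted p 0.427), Slc17a6 -0.81 (adjusted p 0.324), Irx1 -1.09 (adjusted p 0.519), Nwd2 -0.27 (adjusted p 0.611) and Tac2 -0.48 (adjusted p 0.612). The median log2 fold change was -0.80 over the thalamic, -0.48 over the habenular and -0.42 over the shared members tested, with 0.00 over all genes. The habenular value rests on 3 genes: it was -1.11 over 9 genes without the filter on low counts and ran from -1.40 to -0.48 when 1 library was left out, where the filter often kept 5 genes. It was -1.09 without any 1 of the p75NTRko libraries or 5xFAD/p75NTRko replicate 2 or 3, -1.05 and -1.08 without 5xFAD replicate 1 or 2, -0.74 without replicate 3, and -1.21 and -1.40 without WT replicate 1 or 2. Ramp3 and Rora passed with only the WT and 5xFAD libraries in the fit (adjusted p 0.00501 and 0.0205) and without 5xFAD/p75NTRko replicate 2 (adjusted p 0.00957 and 0.0210). The shares of all genes called in these alternative fits are not given here. With the Xist class as a term, no member had an unadjusted p under 0.05 and Rora gave -0.60 (adjusted p 0.949). In every comparison this term was estimated from the p75NTRko libraries alone, the only genotype with both classes. It therefore cannot separate the genotype from the class, and no conclusion is drawn from it.

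In the p75NTRko-labelled libraries against WT, 11 of 24 members lay lower without overlap and 2 higher, against 8.5% and 7.93% of all genes. The 11 were Prkcd, Rora, Plekhg1, Rgs16, Tnnt1, Ramp3, Patj and Amotl1 of the thalamic list and Tcf7l2, Slc17a6 and Cbln4 of the shared list, and the 2 higher were Lhx9 and Lhx2. None of the 3 tested habenular members was among them, which is again near the share of all genes. The 2 higher members are near that share as well. With edgeR, 0 of 24 passed the adjusted threshold (0% of all genes), and 11 had an unadjusted p under 0.05 (11.5% of all genes). DESeq2 called 1 member, Rora (log2 fold change -1.10, adjusted p 0.000448). The edgeR log2 fold changes were -1.10 for Rora (SE 0.213, adjusted p 0.120), -1.80 for Ramp3 (SE 0.416, adjusted p 0.185), -3.23 for Tnnt1 (SE 0.805, adjusted p 0.238) and -1.18 for Cbln4 (SE 0.332, adjusted p 0.264). For the habenular members they were -0.86 for Tac2 (SE 0.433, adjusted p 0.459), -1.37 for Irx1 (SE 0.775, adjusted p 0.510) and -0.35 for Nwd2. List medians were -0.93 (thalamic), -0.86 (habenular) and -0.99 (shared). With only WT and p75NTRko libraries in the fit, Amotl1, Ramp3, Rora, Tcf7l2 and Tnnt1 passed, and without 5xFAD/p75NTRko replicate 1 all of these but Ramp3 passed. Without replicate 2 of that genotype, Ramp3 and Rora did. With the Xist class as a term, 4 members had an unadjusted p under 0.05 and 0 passed the adjusted threshold. The shares of all genes called by DESeq2 and in these alternative fits are not given here.

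In 5xFAD/p75NTRko against 5xFAD, 0 members were apart in either direction (6.02% of all genes lower, 5.18% higher). None passed the adjusted threshold in edgeR (0.0383% of all genes) or DESeq2, and 2 had an unadjusted p under 0.05 (5.08% of all genes): Rora at 0.55 (SE 0.211, adjusted p 0.878) and Ramp3 at 0.94 (SE 0.415, adjusted p 0.932) on the log2 scale. The habenular values were 1.04 for Irx1 (adjusted p 0.988) and 0.23 for Tac2 (adjusted p 0.992), and the latter was -0.07 without 5xFAD replicate 1. Without 5xFAD/p75NTRko replicate 1, 5 members lay lower without overlap (Lef1, Plekhg1, Vav3, Zic1 and Zic4), and without replicate 2, 7 lay higher. Non-overlap is easier to reach with fewer libraries, and the shares of all genes in these fits are not given here. The counts are therefore not read as a result about the members.

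Against the p75NTRko-labelled libraries, Tac2 and Cbln4 were higher in all 3 5xFAD/p75NTRko libraries and no member was lower in all (6.54% and 5.74% of all genes). Unadjusted p was under 0.05 for 7 members (6.59% of all genes), and edgeR called 0 after adjustment (0% of all genes). On the log2 scale Rora gave 0.89 (SE 0.213, adjusted p 0.448), Ramp3 1.16 (SE 0.422, adjusted p 0.711), Cbln4 1.33 (SE 0.331, adjusted p 0.454), Irx1 1.32 (adjusted p 0.833) and Tac2 0.62 (adjusted p 0.866). DESeq2 called Cbln4 and Rora, the latter with an adjusted p of 0.0310. Without 5xFAD/p75NTRko replicate 2, 13 members were higher without overlap in place of 2, and edgeR called Ramp3 and Rora (adjusted p 0.0242 and 0.00404). The shares of all genes apart or called in these alternative fits are not given here, and fewer libraries make non-overlap easier to reach.

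Against WT, no member of 24 was apart in either direction (5.53% of all genes lower, 5.95% higher), passed the adjusted threshold in edgeR (0% of all genes) or DESeq2, or had an unadjusted p under 0.05 (9.95% of all genes). The smallest p-values were those of Zic4, at -0.93 (SE 0.506, adjusted p 0.535), and Lhx9, at 0.63 (SE 0.352, adjusted p 0.547). Tcf7l2 stood at 0.10 (SE 0.483, adjusted p 0.961), Rora at -0.20 (adjusted p 0.752), Slc17a6 at -0.16 (adjusted p 0.893), Prkcd at -0.63 (adjusted p 0.633), Nwd2 at -0.21 (adjusted p 0.772) and Tac2 at -0.24 (adjusted p 0.871). These averages rested on single libraries: without 5xFAD/p75NTRko replicate 1, 13 members lay below WT without overlap and Tcf7l2 gave -1.24, and without replicate 2, Rora gave 0.07 and Slc17a6 0.22. The share of all genes beside the count of 13 is not given here, and fewer libraries make non-overlap easier to reach. Tcf7l2 also changed sign without WT replicate 1 (-0.12) and with the replicate number as a block (-0.13).

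**Figure D4:**
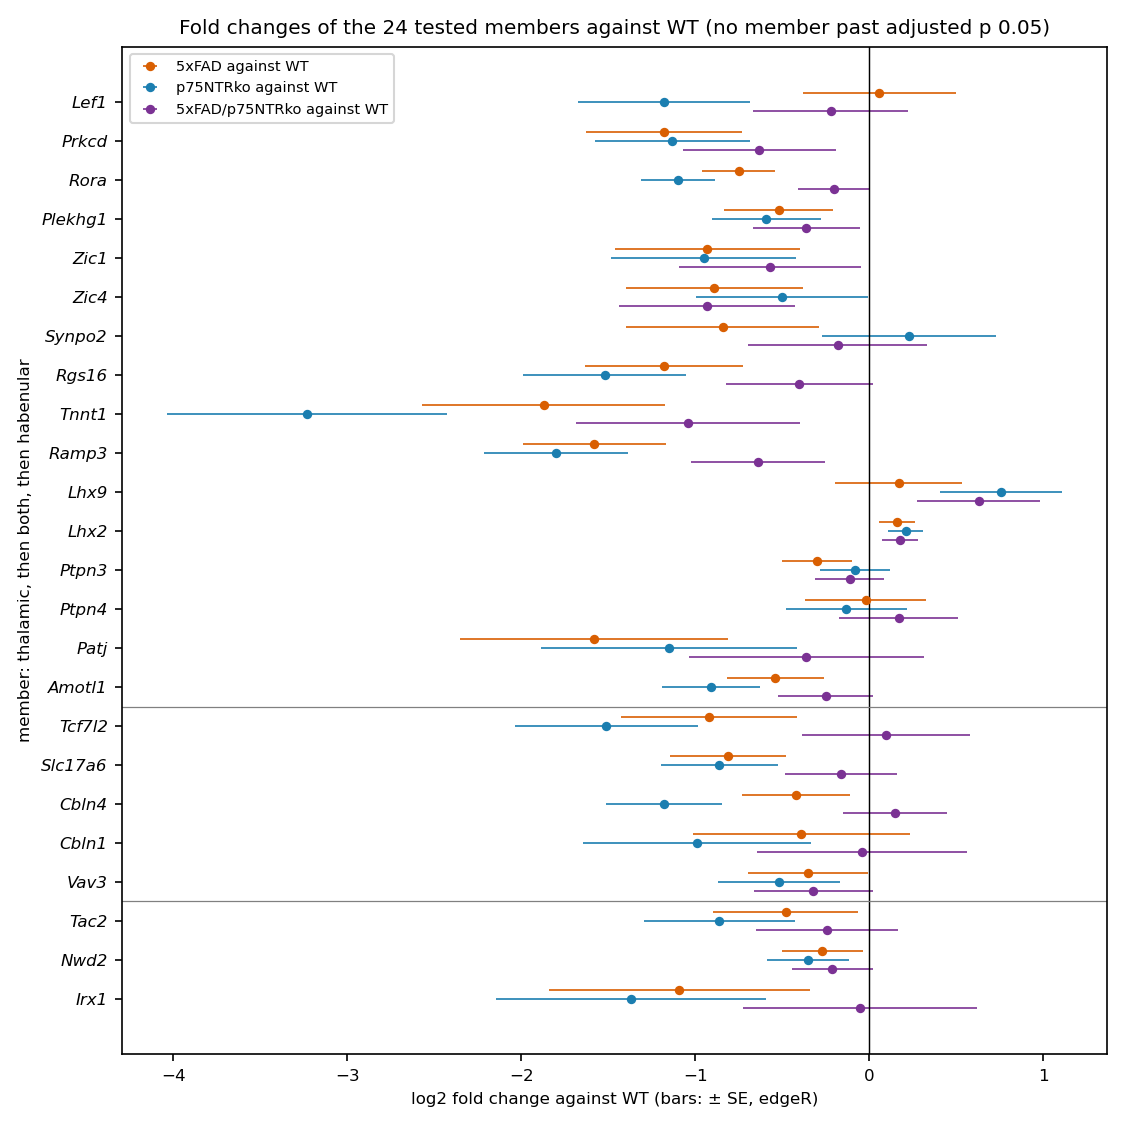
Log2 fold changes against WT (horizontal axis, bars ± SE from edgeR) of the 24 tested members in 5xFAD, p75NTRko and 5xFAD/p75NTRko, which share the WT libraries. The 16 thalamic values run from -1.87 to 0.17 in 5xFAD and from -3.23 to 0.76 in p75NTRko, with 3 above 0 in each. Among them, Ramp3 gave -1.58 and -1.80 there and -0.64 in 5xFAD/p75NTRko. Habenular members run from Irx1 (-1.09 and -1.37 in the first pair of comparisons) to Nwd2 (-0.27 and -0.35). No member passed the adjusted threshold.

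The interaction asks whether the difference between receptor labels depended on the transgenes. No member passed it in edgeR (0 of 24, against 0.0383% of all genes), DESeq2 called 1, Rora (adjusted p 0.000179), and 11 had an unadjusted p under 0.05 (9.32% of all genes). The interaction was 1.65 for Rora (SE 0.300, adjusted p 0.112), 2.74 for Ramp3 (SE 0.588, adjusted p 0.286), 2.41 for Irx1 (SE 1.09, adjusted p 0.527) and 1.09 for Tac2 (SE 0.611, adjusted p 0.581), in log2 units. Without 5xFAD/p75NTRko replicate 2, Ramp3, Rgs16, Rora and Slc17a6 passed, Rora with an adjusted p of 0.000377. In the test for any difference among the 4 genotypes, 0 of 24 passed in edgeR (0.0995% of all genes) and 8 had an unadjusted p under 0.05 (10.4% of all genes). The adjusted p was 0.116 for Rora and 0.173 for Ramp3, and DESeq2 called Cbln4 and Rora. Leaving out 5xFAD/p75NTRko replicate 1 gave 5 calls (Amotl1, Prkcd, Rora, Tcf7l2 and Tnnt1), and leaving out replicate 2 gave 3 (Ramp3, Rora and Slc17a6). The shares of all genes called by DESeq2 and in these alternative fits are not given here.

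Of 6 thalamic genes outside the members, Shox2, Adarb1 and Zfhx3 were highest in 5xFAD/p75NTRko replicate 1, and Ntng1, Cacna1g and Adra1b in a WT library. All 6 were tested, and Adra1b, the alpha-1B adrenergic receptor, was the only one past the threshold in any comparison (5xFAD against WT, the interaction and any difference). It was at 74.1, 60.9 and 35.8 CPM across WT, 14.4, 19.5 and 13.3 across 5xFAD, 22.1, 17.5 and 16.9 across p75NTRko and 39.1, 19.3 and 44.4 across 5xFAD/p75NTRko. Unlike Prkcd, it was highest in WT replicate 1. Against WT, Adra1b in 5xFAD fell by 1.85 in log2 units (SE 0.297, adjusted p 0.0369 in edgeR), and its interaction was 2.73 (SE 0.420, adjusted p 0.0307). The first call was lost with the replicate block (adjusted p 0.0920), with the Xist class as a term (0.949), and without WT replicate 1 or 2, any 5xFAD replicate, or p75NTRko replicate 2 or 3 (0.0572 to 0.269). The interaction was lost with a mean of at least 50 counts (0.0585), with the block (0.0929), with the Xist class (0.998), and without any library but WT replicate 3 or 5xFAD/p75NTRko replicate 2 (0.0546 to 0.190). The Xist term rested on the p75NTRko libraries alone, so it decides neither call. These runs were added after Adra1b was seen past the threshold.

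Shox2, a homeobox factor of the thalamus, was at 8.07, 14.9 and 23.2 CPM across WT, 1.53, 6.95 and 0.631 across 5xFAD, 0, 0.460 and 0.297 across p75NTRko and 29.97, 0.585 and 1.97 across 5xFAD/p75NTRko. All 3 p75NTRko libraries were under the limit of 3 counts, so WT was at least 27.3-fold higher, and the 5xFAD/p75NTRko libraries again held 1 high and 2 low values. Of the 6 habenular genes outside the members (Cbln2, Calb2, Chat, Slc18a3, Slc5a7 and Tac1), 4 were tested and 0 passed in any comparison. Their median log2 fold change was -0.19 in 5xFAD and -0.34 in p75NTRko against WT, where the 6 thalamic genes gave -0.56 and -0.80. Both lists were chosen with earlier results of these data known, and the difference between them was not tested.

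Genes of other cell types also differed between these libraries, and their part in the member values was not tested. Choroid plexus, which lies beside both tissues, was represented by 10 genes led by Ttr. Their summed level was 2408, 3186 and 5952 CPM across WT, 1933, 1342 and 321 across 5xFAD, 7259, 4427 and 5226 across p75NTRko and 7219, 179 and 362 across 5xFAD/p75NTRko. In 5xFAD/p75NTRko the choroid plexus and thalamic sums were both high in replicate 1 alone, but in p75NTRko the choroid plexus sum was high where the thalamic sum (408 to 479.9 CPM) was low. The 10 hippocampal genes summed to 847 to 1194 CPM across WT, 1248 to 1528 across 5xFAD, 1275 to 1417 across p75NTRko and 998 to 1374 across 5xFAD/p75NTRko, so WT lay below 5xFAD and p75NTRko in every library. None of the 10 passed the adjusted threshold in those 2 comparisons. The 8 striatal genes summed to 102.6 to 115.7 CPM in WT and 77.2 to 96.8 CPM in the other 9 libraries, so they too lay highest in WT. Of the 6 striatal genes tested, 5 were below 0 against WT in 5xFAD (median log2 fold change -0.51) and 5 in p75NTRko (median -0.63), and none passed the adjusted threshold. The 10 myelin genes summed to 4131 to 7796 CPM over the 12 libraries, the 6 Cajal-Retzius genes to 46.2 to 66.4 CPM and the 6 endothelial genes to 168 to 231 CPM.

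**Figure D5:**
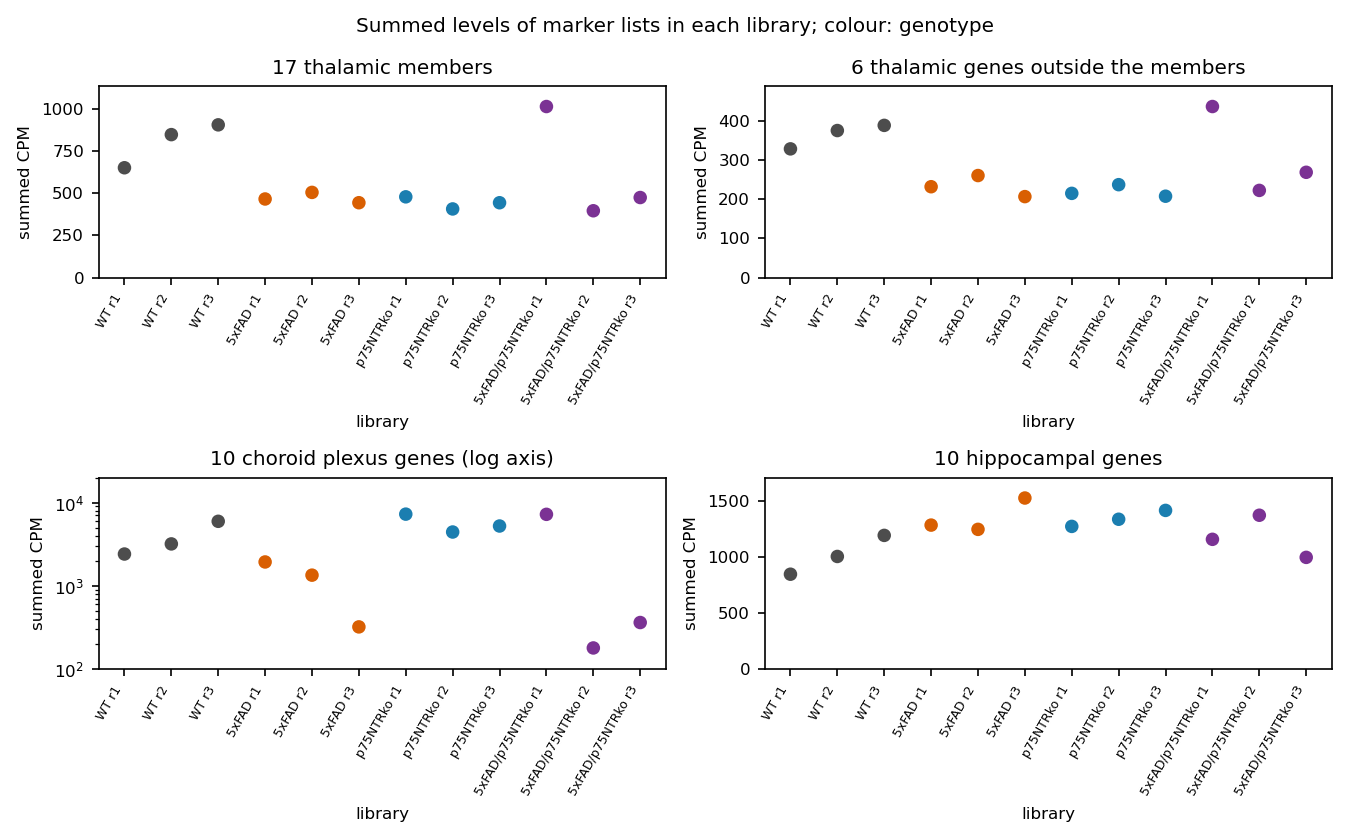
Summed CPM in each of the 12 libraries (points coloured by genotype) of the 17 thalamic members, the 6 thalamic genes outside the members, 10 choroid plexus genes (log axis) and 10 hippocampal genes. Both thalamic sums are highest in 5xFAD/p75NTRko replicate 1 (1017 CPM for the members) and high in WT, whereas choroid plexus genes are also high in p75NTRko (4427 to 7259 CPM).

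Single genes were paired across the 12 libraries on log2 CPM to ask which of these levels moved together. The permutation p-values, all two-sided, were adjusted over the 6 relations computed, of which 4 are given, and none of the 4 passed. Prkcd and Tac2, the thalamic and the habenular anchor, gave Pearson's r of 0.25 (permutation p 0.435, adjusted 0.546) and Spearman's rho of 0.41 (permutation p 0.186, adjusted 0.279). Without WT replicate 2 and 5xFAD/p75NTRko replicate 1, the libraries farthest from the median of Prkcd, r was -0.17. Leaving these out also narrows the range of Prkcd, so the lower r does not show what a relation rested on.

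Prkcd gave r of 0.56 with the choroid plexus gene Ttr (permutation p 0.0557, adjusted 0.167) and 0.48 with Adra1b (permutation p 0.112, adjusted 0.224). The values of rho were 0.59 (permutation p 0.0454, adjusted 0.136) and 0.54 (permutation p 0.0748, adjusted 0.150). Leaving out the same 2 libraries, which narrows the range of Prkcd, gave r of 0.51 with Ttr and 0.22 with Adra1b. Without 5xFAD/p75NTRko replicate 3, Prkcd and Adra1b gave r of 0.74 (permutation p adjusted to 0.0356). Tac2 and Ttr gave r of -0.07 (permutation p 0.834, adjusted 0.834), rho of -0.11 (permutation p 0.732, adjusted 0.732) and r of -0.22 without the 2 libraries farthest in Tac2, WT replicates 1 and 2. All libraries carry the same batch label.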

How the data were processed

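RNA of 12 hippocampal samples was made into 3′ QuantSeq libraries (RNA integrity number above 7, per the labels' protocols). The deposited table holds raw counts per gene symbol, with no normalization that file or labels record. The submitters' processing notes name FastQC, HISAT2, SAMtools, HTSeq, edgeR and build mm10, with no versions or order, and the use of strand is not given in the sources used here. The table's summary lines held 61.5% to 67.8% of reads, among them 9.57% to 12.1% aligned to several places, and were left out, so near-identical and overlapping genes are uncertain. Columns of other samples numbered 0.

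The analysis of the counts ran in edgeR 4.0.16 under R 4.3.3 (filterByExpr by genotype, TMM factors of 0.975 to 1.03, a quasi-likelihood fit with 1 mean per genotype over all 12 libraries, Benjamini-Hochberg over 13065 genes, threshold 0.05). The common biological coefficient of variation was 13.8%. DESeq2 1.42.0, RLE size factors, no filter, a mean of at least 50 counts, a replicate block, the Xist class, only the compared genotypes and leaving out each library were the alternatives. Log2 CPM used a prior count of 2, and correlations 100000 permutations (2 of the 6 relations are not reported here). The fit was tested on simulated data. Counting limits cover counting error only, since amplified reads are not independent molecules. The p-values of the genotype tests weigh a difference against the spread between replicates. Permutation p-values of the correlations come from reordering the 12 libraries without regard to genotype. The members and lists were chosen with earlier results of these data known. Values in every library are given for Prkcd, Tcf7l2, Rora, Slc17a6, Tac2, Gpr151, Nwd2, Pou4f1 and, per comparison, the 2 thalamic and 2 habenular members with the smallest p, other members being chosen as stated. Genes most like a list were the 8 (thalamic) and 5 (habenular) tested genes of at least 5 CPM with the highest Pearson r to its mean log2 CPM.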

Additional observations from a re-analysis of the deposited data

How the results depend on the processing

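Counts of called members depended on the fit. Except for the replicate block, the share of all genes called under each alternative is not given here. The counts are therefore not read as results about the members. In edgeR without a filter on low counts, 1 member passed in 5xFAD against WT, 3 in p75NTRko against WT, 2 in the interaction and 2 in the test for any difference, in place of 0 in each. DESeq2 called 1, 2, 1 and 2 members in p75NTRko against WT, 5xFAD/p75NTRko against p75NTRko, the interaction and any difference. With only the compared genotypes, 2 passed in 5xFAD against WT and 5 in p75NTRko against WT. Leaving out 1 library at a time gave, taking first 5xFAD and p75NTRko, each against WT, then the cross against 5xFAD, p75NTRko and WT, then the interaction and any difference, 0 to 2, 0 to 4, 0 to 0, 0 to 2, 0 to 0, 0 to 4 and 0 to 5 calls, where those above 0 came without 5xFAD/p75NTRko replicate 1 or 2. RLE factors, a mean of at least 50 counts and the Xist class gave 0 in all 7. Members apart without overlap in 5xFAD against WT numbered 6 lower with a mean of at least 50 counts and 1 higher with no filter. In 5xFAD/p75NTRko, 1 was higher than in 5xFAD with no filter, and 1 higher than in p75NTRko with a mean of at least 50 counts. Leaving out a library gave 10 to 15 lower and 0 to 1 higher in 5xFAD, 12 to 14 lower and 2 to 2 higher in p75NTRko, both against WT. For 5xFAD/p75NTRko it gave 0 to 5 lower and 0 to 7 higher against 5xFAD, 0 to 3 lower and 2 to 13 higher against p75NTRko, and 0 to 13 lower and 0 to 1 higher against WT. The shares of all genes without overlap under these settings are not given here, and fewer libraries make non-overlap easier to reach. These counts therefore show only how the values depend on single libraries and filters. The habenular median, over few genes, was -1.11 in 5xFAD against WT, 1.04 in 5xFAD/p75NTRko against 5xFAD, 0.98 against p75NTRko and 2.42 in the interaction with no filter, -0.34, 0.13 and 0.38 in p75NTRko against WT, 5xFAD/p75NTRko against p75NTRko and the interaction with a mean of at least 50 counts, and -0.60 in p75NTRko against WT with only those genotypes. More or fewer habenular genes tested is part of how the filters work. Leaving out a library, list medians in the 6 comparisons with a fold change were -0.87 to -0.35, -1.05 to -0.66, -0.12 to 0.58, -0.06 to 0.77, -0.92 to -0.06 and 0.31 to 1.37 (thalamic), -1.40 to -0.48, -1.31 to -0.80, 0.16 to 1.34, 0.37 to 1.31, -0.40 to 0.25 and 1.02 to 2.71 (habenular), and -0.70 to -0.40, -1.25 to -0.86, 0.17 to 0.79, 0.26 to 1.33, -0.64 to 0.34 and 1.19 to 1.88 (shared). Signs changed for Tac2 in 5xFAD/p75NTRko against 5xFAD without 5xFAD replicate 1 (-0.07) and, in 5xFAD/p75NTRko against WT, for Tcf7l2 with the replicate block (-0.13), without WT replicate 1 (-0.12) and without 5xFAD/p75NTRko replicate 1 (-1.24), and for Rora (0.07) and Slc17a6 (0.22) without 5xFAD/p75NTRko replicate 2. Their ranges without 1 library were -0.07 to 0.83 (Tac2), -1.24 to 0.51 (Tcf7l2), -0.52 to 0.07 (Rora) and -0.64 to 0.22 (Slc17a6). The correlation of Tac2 with Ttr was 0.03 without WT replicate 3. That of Prkcd with Adra1b was 0.74 without 5xFAD/p75NTRko replicate 3. Leaving out a library, r was 0.04 to 0.48 for Prkcd with Tac2, 0.47 to 0.63 with Ttr and 0.34 to 0.74 with Adra1b, and -0.18 to 0.03 for Tac2 with Ttr. The cause of these changes was not tested. Replicate numbers did not pair the samples: deviations of same-numbered libraries from their genotype means correlated at -0.42 to 0.14 (median -0.02, 18 pairs), against -0.22 to 0.34 for other pairs. With the replicate block 0 members passed in any comparison, and 1, 0, 0, 0, 0, 3 and 4 genes of all tested passed in place of 7, 0, 5, 0, 0, 5 and 13. Depth limited the 6 habenular members under the filter, which had 50 of 72 values at or under 3 counts and were not tested.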

Other observations

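Across the 12 libraries, the genes whose log2 CPM most resembled the mean of the 16 tested thalamic members were, of 10661 candidates, Zfhx3 (r of 0.94), Anxa5 (0.92), Tgoln1 (0.91), Tal1 (0.90), Slc6a11 (0.89), Igsf1 (0.88), Adarb1 (0.88) and Arl2 (0.87). Zfhx3 and Adarb1 had been listed as thalamic genes outside the members. Slc6a11, the GABA transporter GAT-3, ranged from 229 to 422 CPM, Tal1, a transcription factor of blood and of some GABAergic neurons, from 2.99 to 11.8 CPM, and the annexin Anxa5 from 34.9 to 58.1 CPM. Zfhx3, a homeobox factor, was at 21.6 CPM in 5xFAD/p75NTRko replicate 2 and 93.9 in replicate 1. The points share libraries, depth and the genotype means, so these values describe and are not tested.

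Different genes stood nearest to the mean of the 3 tested habenular members: the AMPA receptor subunit Gria4 (r of 0.89), Adra1b (0.89), the phosphatase Pdp1 (0.87), Cluh (0.87) and Ppil6 (0.86). Adra1b, however, had been listed as a thalamic gene outside the members. Gria4 ranged from 21.2 to 41.5 CPM and Pdp1 from 130.4 to 313 CPM over the 12 libraries. None of these 5 was among the 8 nearest to the thalamic mean.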
